A study of Rattus norvegicus with 9 samples.

Results

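Serum-starved microvascular smooth muscle cells that received no growth factor are described here from 3 control libraries, chosen by their labels out of 9 samples in the series. The cells were S31 cells, wild-type primary vascular smooth muscle cells from microvessels of hearts of Wistar Kyoto rats, which were male. They were kept for 48 h in DMEM without serum, with lactalbumin hydrolysate as the protein supplement, then given the same medium fresh, and RNA was taken 24 h later. The remaining 6 samples were treated with PDGF-BB or IGF-1 and were not used here. S31 is 1 cell preparation, and whether its 3 libraries came from separate cultures is not stated in the labels, so the spread given below is that between these samples and may be technical.

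Smooth muscle cells of the vessel wall contract through actin and myosin filaments under the control of calcium, calmodulin and myosin light chain kinase, and they build the elastic and collagenous matrix of the wall. In culture they tend to lose myosin heavy chain and other late contractile proteins and to make more matrix, a state often called synthetic. Pericytes, fibroblasts and endothelial cells share the microvessel with them, so markers of each are given beside those of smooth muscle.

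Levels are FPKM, a fragment count scaled to transcript length and library size, so they can be compared between genes of different length. Unless given per library, a level is the mean ± SD over n = 3 libraries, and the coefficient of variation (CV) is the SD as a percent of the mean. Of 26402 entries, 11152 had a mean of at least 1 FPKM, the level used below for counting a gene as detected (42.2% of entries). Every count of detected list members below is to be read against this share. It includes entries without a symbol, and the share was higher for named genes, as those in the lists are. Of 20607 entries with a symbol, 10405 were detected. Of protein-coding genes, 50.4% (chromosome 3) to 67.2% (chromosome 19) were detected on each autosome. A mean of at least 10 FPKM was reached by 6311 entries, at least 100 FPKM by 959 and at least 1000 FPKM by 82. The deposited values sum to 633093, 655645 and 647416 FPKM in libraries 1, 2 and 3. The number of reads is unknown. From the steps between the lowest values, libraries 2 and 3 had 0.658 and 0.776 of the depth of library 1.

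Some zeros in these libraries cannot be read as absence. Of 655 protein-coding genes that RefSeq (GRCr8) places on chromosome X, 589 were listed at 0 in all 3 libraries (89.9%), against 15.7% to 36.7% on each of the 20 autosomes. Genes that nearly every cell uses, such as Pgk1 of glycolysis, Tmsb4x and Msn of the actin cytoskeleton and Rpl36a of the ribosome, were among those listed at 0 (chosen after their values were seen). Other X-linked genes had high values, among them Bgn, Flna and Rpl10. The cause was not tested. Timp1, Fhl1, Elk1, Foxo4, Agtr2, Col4a5 and Col4a6 are X-linked and listed at 0, so nothing is read from their values. Genes with many near-identical copies can lose reads to them, and Gapdh at 71.4 ± 4.03 FPKM and Hspa8 at 4.5 ± 1.38 FPKM are therefore uncertain.

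**Figure D1:**
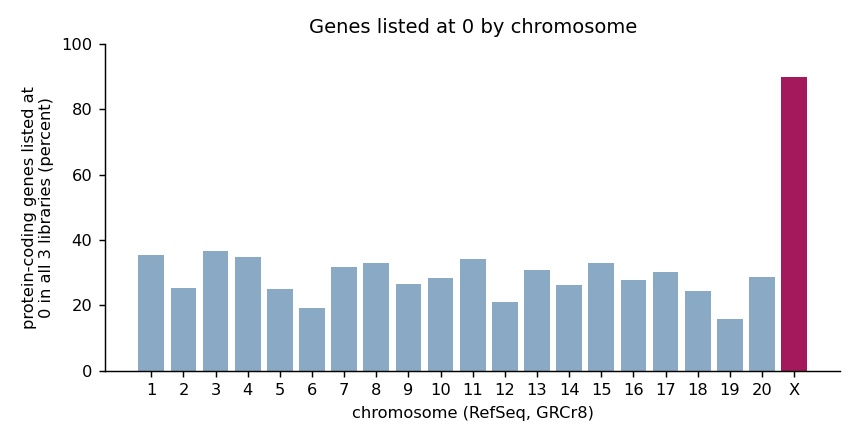
Percent of protein-coding genes listed at 0 FPKM in all 3 control libraries (vertical axis), by chromosome (horizontal axis, RefSeq GRCr8; chromosomes with at least 100 matched genes). The bar for X stands at 89.9%, and the bars for the 20 autosomes lie between 15.7% and 36.7%.

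Library 1 stood apart from libraries 2 and 3. Over the 11152 detected entries the Pearson correlation of log2(FPKM + 1) was 0.978 between libraries 2 and 3, 0.960 between 1 and 2 and 0.956 between 1 and 3, a description across genes, which are not independent. The median CV of genes at a mean of at least 10 FPKM was 14.4% with all 3 libraries and 6.97% without library 1. Of 6311 such genes, 408 (6.46%) differed at least 2-fold between the highest and the lowest library, and without library 1 the count was 46 of 6283. Library 1 was farthest from the middle value in 315 of these 408 genes, above it in 107 and below it in 208. Values are therefore given per library for the genes described in most detail.

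Genes of ribosomal proteins, matrix and cytoskeleton were prominent among the most abundant genes of the control cells. The ribosomal protein, matrix and cytoskeleton lists held 15.3%, 9.31% and 3.17% of the summed FPKM. The 10 most abundant genes held 12.9% of the summed FPKM, the 100 most abundant 38.8%, and 226 genes held 50%. Of the 100 most abundant genes, 28 encoded ribosomal proteins, 14 matrix proteins and their modifiers, 5 contractile proteins and 8 had no symbol. The highest level was that of Rplp0, a protein of the ribosomal stalk, at 12319.5, 10983 and 9963 FPKM in libraries 1, 2 and 3. Bgn, the small leucine-rich proteoglycan biglycan, followed at 10383, 11262 and 10782 FPKM, and Rpl41 at 7635, 12185 and 12244 FPKM. The ranges of these 3 genes overlapped, so their order is not set beyond the spread.

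Sparc, a collagen-binding matrix glycoprotein, had 8203, 8910.2 and 8846 FPKM, and beta-actin (Actb) 8164, 7240.0 and 9392 FPKM. FN1, which encodes fibronectin, had 6648, 5783 and 6301 FPKM. Their CVs over the 3 libraries were 4.52%, 13.1% and 6.97%. Among the 25 highest entries were also S100a11, a calcium-binding protein (5762 ± 1413 FPKM), the galectin Lgals1 (4753 ± 425 FPKM), the calcification inhibitor Mgp (4188 ± 1224 FPKM), the iron store subunit Fth1 (3533 ± 197 FPKM), the elongation factor Eef1a1 (3407 ± 307 FPKM), Tpt1 (3054 ± 449 FPKM) and the ubiquitin gene UBB (4727 ± 173 FPKM). Mgp and S100a11 were lowest in library 1, at 2797 and 4249.7 FPKM, where libraries 2 and 3 had 4670.0 and 5098 FPKM for Mgp and 5988 and 7047 FPKM for S100a11. One of 3 entries without a symbol, the seventh in rank, had 8794 and 8121 FPKM in libraries 1 and 2 and 2757 FPKM in library 3.

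**Figure D2:**
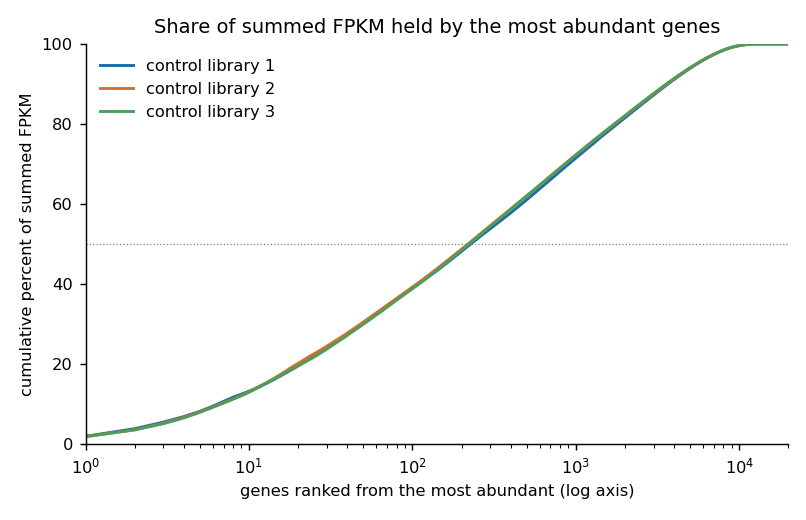
Cumulative percent of the summed FPKM (vertical axis) held by genes ranked from the most abundant (horizontal axis, log scale), 1 line per control library. The lines nearly coincide and cross 50% at 228, 219 and 223 genes in libraries 1, 2 and 3.

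Ribosomal protein genes together held 15.3% ± 1.18 of the summed FPKM, and 110 of 147 entries were detected. Their levels ran from 0 to 11088 FPKM, and of the 27 entries listed at 0, 9 were X-linked. As many of these genes have processed copies in the genome, a low value of a single member is uncertain. Library 1 was low for this group: its members took 13.9% of the summed FPKM there, and the median member at a mean of at least 10 FPKM lay 0.30 below its own mean on the log2(FPKM + 1) scale. In libraries 2 and 3 the median member lay 0.15 and 0.12 above.

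All 32 genes of the smooth muscle contractile list were detected, and they held 1.61% ± 0.209 of the summed FPKM. Of these, 16 had a mean of at least 100 FPKM. The thin filament and its regulators were highest. Tagln (SM22-alpha, an actin-binding protein used as an early smooth muscle marker) had 1739.6, 1878 and 2698 FPKM, highest in library 3. Tpm2, a tropomyosin, had 1431, 1598 and 1783 FPKM. TPM1, another tropomyosin, had 768, 954 and 1319.5 FPKM, below Tpm2 in each library. Myl9, the regulatory myosin light chain, had 1336, 1167 and 1319 FPKM. Myl6, the essential light chain, had 602, 920.1 and 966 FPKM. Only Tpm2 lay wholly above its next neighbour Myl9 among the 6 highest; the other neighbours overlapped.

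The genes of thin-filament regulation and of the actin anchor were intermediate. Caldesmon (Cald1) had 324 ± 82.3 FPKM, calponin (Cnn1) 262 ± 63.2 FPKM, and leiomodin (Lmod1), which nucleates actin filaments, 162 ± 22.1 FPKM. Vinculin (Vcl) had 381 ± 63.7 FPKM, filamin A (Flna) 538 ± 65.1 FPKM, alpha-actinin (Actn1) 278 ± 73.4 FPKM and the LIM protein Csrp1 541 ± 119 FPKM. Pdlim7 (213 FPKM), Tns1 (190.5 FPKM), Hspb6 (177 FPKM), Smtn, the smoothelin gene (71.6 FPKM), Casq2 (65.7 FPKM), Npnt (41.7 FPKM) and the integrin subunits Itga8 (32.5 FPKM) and Itga7 (23.2 FPKM) followed.

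Some of the late and most specific smooth muscle genes were at the low end of the list. Myh11, which encodes the myosin heavy chain of smooth muscle, had 1.38, 1.31 and 2.6 FPKM, and desmin (Des), the muscle intermediate filament, 1.71, 1.6 and 1.22 FPKM. Myosin light chain kinase (Mylk) had 12.1, 9.45 and 10.6 FPKM, close to the level of Actg2 at 9.91, 7.63 and 18.6 FPKM. Synpo2 (3.67 FPKM), Mustn1 (4.64 FPKM), Nexn (11.6 FPKM), Pdlim3 (13.7 FPKM) and the myosin phosphatase subunit Ppp1r12b (14.7 FPKM) were also below 15 FPKM. Non-muscle myosin heavy chains were higher than Myh11 in each library: Myh10 had 104, 113 and 90.3 FPKM, and the table holds 2 entries for myosin 9, MYH9 at 38.9 and Myh9 at 18.2 FPKM. Acta2 was not analysed here. The name smooth muscle comes from the sample labels, and whether the 32 markers set these cells apart from other cell types was not tested.

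In the synthetic list 17 of 18 entries were detected and 11 had a mean of at least 100 FPKM. Besides FN1 and Mgp, the intermediate filament gene Vim had 2804, 2534 and 2666 FPKM and thrombospondin 1 (Thbs1) 1354, 1005 and 1549 FPKM. Osteopontin (Spp1) had 366, 906 and 583 FPKM and differed more than 2-fold between libraries 1 and 2. S100a4 (448 ± 176 FPKM), Cnn3 (429.8 ± 38.7 FPKM) and the decoy receptor Tnfrsf11b (277 ± 112 FPKM) followed, and Klf4, a repressor of contractile genes, had 26 ± 3.29 FPKM. Together these genes held 2.61% ± 0.209 of the summed FPKM.

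**Figure D3:**
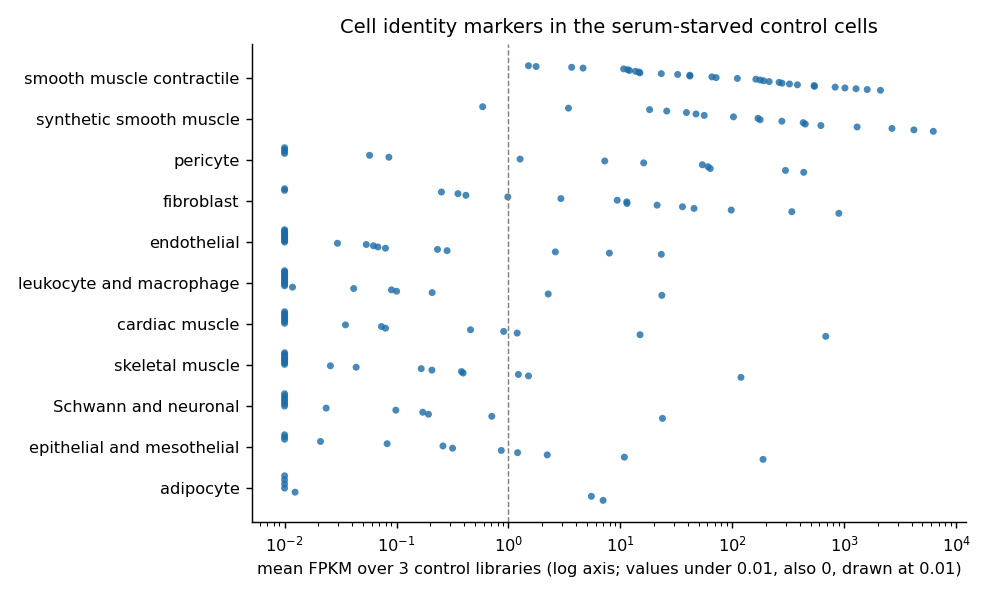
Mean FPKM over 3 control libraries (horizontal axis, log scale, values under 0.01 and zeros drawn at 0.01) of each marker in 11 identity lists (vertical axis), 1 point per gene. The dashed line is at 1 FPKM. All 32 contractile and 17 of 18 synthetic markers lie to its right, against 3 of 21 endothelial and 2 of 19 leukocyte entries.

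Pericyte markers were split. Of 14, 8 were detected and 4 were listed at 0 in all libraries. Pdgfrb, a receptor for PDGF-BB, had 557, 386 and 359.7 FPKM, and the forkhead factor Foxs1 355, 255 and 285 FPKM. Notch3 had 91, 57.4 and 42.1 FPKM and the adhesion molecule Mcam 58.6, 54 and 69.2 FPKM. Pdgfrb, Notch3 and Mcam are shared with smooth muscle. ABCC9 (SUR2) and Kcnj8 (Kir6.1), which form a potassium channel and mark pericytes in many tissues, were detected at 52.8, 61 and 48.3 FPKM and at 16.1 ± 8.89 FPKM. Rgs5, Higd1b, Steap4 and Ndufa4l2, also used as pericyte markers, were listed at 0, and the proteoglycan NG2 (Cspg4) had 0.0855 FPKM and Vtn 0.0575 FPKM. Of the remaining members Anpep had 7.25 FPKM and Cox4i2 1.27 FPKM.

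Of 16 fibroblast entries 10 were detected. Periostin (Postn) was highest at 659.9, 1021 and 1003 FPKM, then lumican (Lum) at 276, 349 and 395 FPKM and the collagen receptor Ddr2 at 127, 88.6 and 78.2 FPKM. Postn lay wholly above Lum, and Lum above Ddr2. Pdgfra, the receptor most used to sort fibroblasts, had 11.4 ± 1.41 FPKM, below Pdgfrb in each library, and decorin (Dcn) had 11.4 ± 5.51 FPKM. Podoplanin (Pdpn) had 13.3, 41.9 and 81.3 FPKM. Mfap5 had 35.9 ± 4.36 FPKM, Thy1 21.3 ± 3.95 FPKM, the higher of 2 Ogn entries 9.37 ± 1.49 FPKM and Pi16 2.94 ± 1.37 FPKM. Tcf21, a factor of cardiac fibroblasts, and Fap were listed at 0, and Dpt (0.417 FPKM), Fbln1 (0.354 FPKM) and Clec3b (0.252 FPKM) were below detection.

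Defining endothelial markers were at or near 0. Only 3 of 21 entries (14.3%) were detected, against 42.2% of all entries. Pecam1, Cdh5, Kdr, Tie1, Cldn5, Emcn, Sox17, Sox18, Mmrn2 and both Robo4 entries were listed at 0 in all 3 libraries, and Vwf and Nos3 had 0.0622 and 0.0682 FPKM. The detected members were Flt1, a VEGF receptor, at 19.7, 19.9 and 30 FPKM, the transcription factor Erg at 7.32, 8.76 and 7.85 FPKM and EGFL7 at 3.33, 1.88 and 2.65 FPKM. These 3 did not overlap and were present in each library.

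Markers of blood and heart muscle cells were mostly listed at 0 or below detection. Of 19 leukocyte entries 2 were detected, Cd14 at 23.5 ± 5.29 FPKM and Fcer1g at 2.27 ± 0.918 FPKM, and Ptprc, the pan-leukocyte CD45 gene, was listed at 0. Of 16 cardiac muscle genes 3 were detected: Pln, the SERCA regulator phospholamban that smooth muscle also has, at 492, 710.0 and 849 FPKM, Tnnt2 at 21.2, 9.73 and 14 FPKM and Actn2 at 1.2 ± 0.354 FPKM. Myh6, Myh7, Myl2 and Tnni3 were listed at 0. Of 18 skeletal muscle genes 3 were detected, and 1 of them was high: Acta1, skeletal alpha-actin, at 104, 59.8 and 194 FPKM. Actin genes are nearly alike in their coding sequence, and whether reads of other actins were counted for Acta1 was not tested.

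Epithelial and mesothelial genes were detected in 4 of 12 cases, led by the uroplakin Upk3b at 79.3, 208 and 277 FPKM and Krt8 at 10.9 ± 1.65 FPKM. Upk3b is also a mesothelial marker, and of the other mesothelial genes Msln had 0.634, 1.19 and 1.8 FPKM, Lrrn4 0.359, 0.374 and 1.85 FPKM and Wt1 a mean of 0.26 FPKM. Upk3b, Msln and Lrrn4 were each lowest in library 1 and highest in library 3, with Msln and Lrrn4 near the detection level. The keratins among the detected members went another way. Krt8 had 12.1, 11.5 and 8.98 FPKM and Krt7 2.41, 2.98 and 1.27 FPKM, both lowest in library 3. Of 13 Schwann and neuronal genes 1 was detected, Ncam1 at 23.8 ± 4.81 FPKM, and of 7 adipocyte genes 2, Lpl at 7.0 ± 3.6 FPKM and Pparg at 5.5 ± 0.15 FPKM. In these bulk libraries, fewer cells of a type and less RNA per cell cannot be told apart.

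Regulators of the contractile program were detected in 29 of 34 cases (85.3%, against 42.2% of all entries). Of the 5 below detection, 3 were X-linked genes listed at 0. Myocardin (Myocd), which binds serum response factor and switches on contractile genes, had 44, 42 and 48.2 FPKM, and serum response factor (Srf) 37.1, 20.4 and 27.3 FPKM. The myocardin-related factor Mkl1 had 134, 90.8 and 111 FPKM. Lmcd1, a LIM protein, was the highest at 348 ± 73.8 FPKM, followed by the Notch target Hey2 at 180.1 ± 5.61 FPKM and the Hippo coactivator Wwtr1 at 149 ± 22.4 FPKM, each wholly above the next down to Wwtr1. Yap1 had 65.9 ± 16.1 FPKM, Tead1 57.1 ± 4.38 FPKM, Mef2a 79.2 ± 12.5 FPKM and Prdm6 47.6 ± 8.28 FPKM. The Notch targets Hey1 and Heyl were below detection at 0.835 and 0.126 FPKM.

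Transcription factors of heart and vessel development were detected in 30 of 43 cases. Nr2f2 (COUP-TFII, a factor of veins and mesenchyme) had 298, 181 and 196 FPKM, Foxp1 171 ± 20.7 FPKM, Nfix 134 ± 31.7 FPKM and Prrx1, a mesenchymal factor, 93.7 ± 3.89 FPKM. Gata6, the GATA factor of vascular smooth muscle, had 42.4, 53.9 and 57.7 FPKM and Gata4 18.2, 18.3 and 20.4 FPKM. Tbx18, which marks the epicardial and mural lineage, had 21.7, 25.6 and 22.2 FPKM, and Hand2 17, 18.8 and 29.1 FPKM. The cardiomyocyte factors Tbx5 and Tbx20 and the visceral factor Nkx2-3 were listed at 0, and Nkx2-5 had 0.0467 FPKM (all 4 chosen after their values were seen).

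Growth factor receptors included receptors for both factors used elsewhere in the series. Of 45 entries in the receptor tyrosine kinase list 26 were detected, and Pdgfrb was the highest, with no overlap with the next. Axl, the receptor for Gas6, had 138, 111 and 127 FPKM, and the IGF-1 receptor (Igf1r) 64, 57.5 and 66.4 FPKM. The insulin receptor (Insr) had 18, 13.8 and 12.9 FPKM, below Igf1r in each library. Ptk7 (48.3 ± 10.7 FPKM), Ryk (29.8 ± 7.65 FPKM), Ephb4 (29.4 ± 7.41 FPKM), Ntrk3 (28.4 ± 2.56 FPKM), Fgfr2 (24.7 ± 4.93 FPKM) and Fgfr1 (18.4 ± 6.97 FPKM) were lower, Met had 15.6 ± 4.1 FPKM and Egfr 5.59 ± 1.41 FPKM. As a group these receptors were high in library 1, where the median member at a mean of at least 10 FPKM lay 0.23 above its own mean on the log2(FPKM + 1) scale.

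In the list of 65 G-protein-coupled receptors for vasoactive agents 20 were detected (30.8%, against 42.2% of all entries), 25 were listed at 0, 4 of those X-linked, and only F2r had a mean over 100 FPKM. F2r, the thrombin receptor PAR1, had 400.4, 345 and 442 FPKM. The sphingosine-1-phosphate receptors S1pr2, S1pr3 and S1pr1 had 56.8 ± 7.1, 35.9 ± 2.76 and 8.76 ± 1.82 FPKM, and the prostaglandin E2 receptor Ptger3 37.1 ± 8.46 FPKM. Ptger3 and S1pr3 overlapped and are not ordered beyond the spread.

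The classical constrictor receptors lay lower. The vasopressin receptor Avpr1a had 14.7, 10.2 and 17.4 FPKM, the endothelin receptor Ednra 6.99, 6.73 and 6.27 FPKM and the thromboxane receptor Tbxa2r 7.34, 7.66 and 4.86 FPKM. The serotonin receptor Htr2a had 4.49 ± 1.49 FPKM and the angiotensin II receptor Agtr1a 1.27, 0.852 and 1.25 FPKM. Adra1a and Agtr1b were listed at 0 and Adra1d had 0.366 FPKM (all 3 chosen after their values were seen). The related adrenoceptor gene Adra1b had no entry, so its level is unknown. Receptors for nucleotides were at 10 FPKM or just above, P2ry2 at 10.1 ± 0.409 FPKM and P2ry6 at 10.1 ± 2.5 FPKM.

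**Figure D4:**
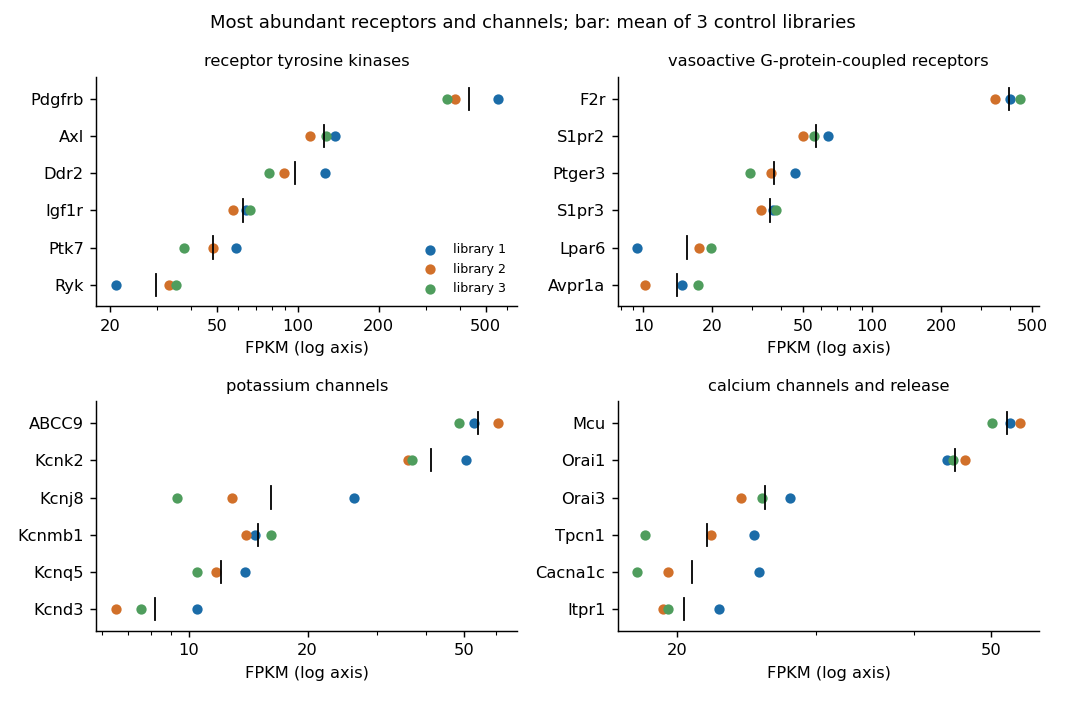
FPKM (horizontal axes, log scale) of the 6 most abundant members of 4 lists in each control library, with 1 colour per library and a black bar at the mean. Pdgfrb and F2r stand apart from the next member of their lists, and library 1 holds the highest value of Pdgfrb, Kcnk2, Kcnj8 and Cacna1c.

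Signal transducers downstream of these receptors were detected in 30 of 34 cases. The stimulatory G protein gene Gnas had 910.1 ± 239 FPKM, Rhoa, the small GTPase of calcium sensitization, 411, 474 and 491 FPKM, and Gnai2 339 ± 39 FPKM. Gnaq and Gna11, which couple constrictor receptors to phospholipase C, had 48.4 ± 2.89 and 40.8 ± 4.08 FPKM. Ppp1r14a (CPI-17), an inhibitor of myosin phosphatase, had 149, 103 and 80.4 FPKM, highest in library 1 and above Mylk in each library. Rock2, a kinase that acts after Rhoa, had 35.9 ± 10.9 FPKM.

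In the nitric oxide and natriuretic peptide pathway 11 of 24 entries were detected (45.8%, against 42.2% of all entries). Gucy1b3, the beta subunit of soluble guanylate cyclase, had 85.6, 96 and 101 FPKM, but its alpha partner Gucy1a3 had 0.191, 0.0429 and 0.213 FPKM (chosen after its value was seen). Whether the reads of Gucy1a3 were counted in full was not tested. Mrvi1, the IP3 receptor-associated substrate of cGMP kinase, had 70.8 ± 8.07 FPKM and the kinase Prkg1 14.7 ± 1.94 FPKM. The natriuretic peptide clearance receptor Npr3 had 75.3, 57.3 and 45.5 FPKM and the receptor for C-type peptide, Npr2, 20.6, 13 and 10.9 FPKM. Pde3a was the highest phosphodiesterase at 31.4 ± 3.64 FPKM, and Pde5a, the cGMP-specific enzyme, had 3.34 ± 0.325 FPKM.

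Receptors for TGF-beta and BMP were detected in 8 of 13 cases. Tgfbr2, which binds TGF-beta first, had 71.2, 46.2 and 45.2 FPKM and its partner Tgfbr1 8.39, 9.08 and 10.4 FPKM. Bmpr2 and Bmpr1a had 48.2 ± 3.66 and 43.5 ± 7.58 FPKM, and Eng and Acvrl1, the pair typical of endothelium, had 0.142 and 0.0103 FPKM (chosen after their values were seen). Of 15 Notch and Wnt receptors 11 were detected. Fzd2 was the highest at 160.2 ± 24 FPKM, followed by Fzd1 (80.3 ± 9.7 FPKM) and Fzd7 (68.2 ± 11.7 FPKM). Notch2 had 36.1 ± 11 FPKM and Notch1 7.99 ± 1.06 FPKM, both below Notch3 in each library.

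Cytokine and Toll-like receptors were detected in 21 of 26 cases. The TNF receptor Tnfrsf1a had 219, 203 and 209 FPKM, Tnfrsf12a 150.1 ± 22.5 FPKM, the CXCL12 scavenger Cxcr7 106 ± 23 FPKM, Ifngr1 94.8 ± 3.37 FPKM and the shared interleukin 6 subunit Il6st 81.1 ± 5.47 FPKM. The values of Tnfrsf1a lay close together in the 3 libraries. Of 26 integrin subunits 14 were detected, with Itgb1, the common beta subunit, at 297, 289 and 360.2 FPKM. The vitronectin receptor subunits Itgb5 and Itgav had 72.2 ± 3.14 and 61.2 ± 5.63 FPKM, the fibronectin receptor subunit Itga5 62.9 ± 9.13 FPKM and the collagen receptor subunits Itga11 and Itga1 40.4 ± 13.2 and 40.3 ± 2.83 FPKM. From Itgb5 to Itgav neighbours overlapped.

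Potassium channel genes were mostly below detection: 14 of 97 entries (14.4%) had a mean of at least 1 FPKM, against 42.2% of all entries, and 52 were listed at 0, 1 of them X-linked. ABCC9, the sulfonylurea receptor subunit SUR2 of the vascular ATP-sensitive channel, had 52.8, 61 and 48.3 FPKM, and its pore subunit Kcnj8 (Kir6.1) 26.2, 12.9 and 9.34 FPKM. ABCC9 differed little between libraries, while Kcnj8 was highest in library 1. Kcnk2 (TREK-1), a stretch-sensitive background channel, had 50.4, 36 and 36.7 FPKM. Kcnmb1, the smooth muscle beta subunit of the large-conductance calcium-activated channel, had 14.7, 13.9 and 16.1 FPKM, whereas the pore gene Kcnma1 had 0.0998, 0.151 and 0.259 FPKM (chosen after its value was seen). Whether the reads of Kcnma1 were counted in full was not tested.

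Voltage-gated potassium channels were low. Kcnq5 had 13.9, 11.7 and 10.5 FPKM, Kcnd3 8.19 ± 2.06 FPKM, the regulatory subunit Kcne4 5.97 ± 0.486 FPKM, Kcnq1 3.14 ± 0.567 FPKM and Kcnh2 2.8 ± 0.466 FPKM. Kcna5, which carries delayed rectifier current in arteries, had 0.025 FPKM, and Kcnj2 (Kir2.1) 0.0726 FPKM (chosen after their values were seen). Kcnn1 (3.85 ± 1.33 FPKM), Kcng1 (3.78 ± 1.85 FPKM), Kcnip3 (2.26 ± 0.423 FPKM), Kcnj14 (1.98 ± 0.637 FPKM) and Kcnj4 (1.04 ± 0.108 FPKM) complete the detected members.

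Calcium entry and release genes were detected in 15 of 40 cases (37.5%, against 42.2% of all entries). Cacna1c, the pore of the L-type channel, had 25.4, 19.5 and 17.8 FPKM, and its auxiliary subunit Cacna2d1 15.1, 17.5 and 16.8 FPKM. Orai1, the pore of store-operated entry, had 44, 46.4 and 44.8 FPKM and its sensor Stim1 23.5, 17.9 and 13.5 FPKM. The IP3 receptor Itpr1 had 22.7, 19.2 and 19.5 FPKM and the mitochondrial uniporter Mcu 52.4 ± 2.18 FPKM. The ryanodine receptor genes were not detected, with Ryr1 listed at 0 and Ryr2 and Ryr3 at 0.035 and 0.00811 FPKM, and the T-type gene CACNA1G had 0.4 FPKM (Ryr1, Ryr3 and CACNA1G chosen after their values were seen). Members of this list at a mean of at least 10 FPKM had a median CV of 8.47%, below the 14.4% of all such genes.

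The calcium stores were rich in RNA for their binding proteins. Of 22 genes 17 were detected: calumenin (Calu) had 709 ± 108 FPKM, calreticulin (Calr) 302 ± 12.9 FPKM, the SERCA2 pump ATP2A2 127, 123 and 135 FPKM, the plasma membrane pump Atp2b1 13.9 ± 0.677 FPKM and the sodium-calcium exchanger Slc8a1 12.6 ± 0.589 FPKM. Pln lay above its target ATP2A2 in each library. Of 33 TRP, Piezo and purinergic channels 12 were detected. The polycystins Pkd2 and Pkd1 had 49 ± 7.0 and 27.5 ± 6.4 FPKM, Trpc6 14.8, 15.6 and 31.1 FPKM, Trpm7 19.8 ± 2.64 FPKM, P2rx4 15 ± 1.54 FPKM and the stretch-gated channel Piezo1 14.8 ± 2.32 FPKM.

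Of 37 chloride channel genes 16 were detected. Clic1 and Clic4, which also occur as soluble proteins, had 330.2 ± 17 and 265 ± 41.8 FPKM, and Ano6, a scramblase, 98.7, 80.6 and 93.1 FPKM. The volume-regulated channel subunit Lrrc8a had 26.7 ± 1.46 FPKM. Of 22 sodium channel genes 1 was detected, Scnn1a at 1.1 ± 0.338 FPKM. Of 32 connexin, pannexin and aquaporin genes 9 were detected. Gja1 (connexin 43) had 491, 659 and 926 FPKM, Aqp1 166, 91.6 and 82.9 FPKM and GJC1 (connexin 45) 15.6 ± 2.37 FPKM, each wholly above the next. Gja1 was lowest and Aqp1 highest in library 1. Gja4 and Gja5, the other connexins of the arterial wall, had 5.32 ± 0.927 and 4.0 ± 1.2 FPKM.

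Caveolar genes were detected in 9 of 10 cases. Cav1, the main coat protein, had 799.5, 941 and 971 FPKM, and the cavins Prkcdbp, Ptrf and Sdpr had 692 ± 96.7, 183 ± 44.2 and 19.1 ± 2.52 FPKM. Ehd2, the ATPase at the caveolar neck, had 357 ± 74.4 FPKM, Cav2 131 ± 20.9 FPKM and the muscle form Cav3 29.8 ± 5.02 FPKM.

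Matrix genes, their modifiers and proteinases held 9.31% ± 0.268 of the summed FPKM, and 129 of 215 entries were detected (49 at a mean of at least 100 FPKM). Collagens were detected in 20 of 44 cases, and 2 of the 14 listed at 0 were X-linked. Col1a1, the alpha-1 chain of type I collagen, had 3686, 2371 and 2575 FPKM, while Col1a2, which joins it in the same trimer, had 165, 104 and 105 FPKM. Col1a1 was higher than Col1a2 in each library. Whether this gap lies in the cells or in the counting of reads was not tested. Col3a1 had 813, 648 and 653 FPKM, Col6a1 132 ± 34.8 FPKM, Col6a2 128 ± 27.7 FPKM, Col5a2 127 ± 11.3 FPKM and Col5a1 107 ± 11 FPKM. In the basement membrane collagen IV, Col4a1 had 92.2 ± 8.75 FPKM and COL4A2 36.7 ± 10.4 FPKM. Collagens varied more than most genes between libraries, with a median CV of 24.0% for 15 members at a mean of at least 10 FPKM. Their share of the summed FPKM was 0.877%, 0.588% and 0.630% in libraries 1, 2 and 3, and 0.697% on average.

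Elastic fibre genes were detected in 19 of 23 cases (82.6%, against 42.2% of all entries). Elastin (Eln) had 2161, 1933 and 1748 FPKM and fibulin 5 (Fbln5), which guides its assembly, 1626, 1559 and 1351 FPKM. EFEMP2 (fibulin 4) had 719, 702 and 713 FPKM, the crosslinking enzyme Lox 538, 482 and 451 FPKM and Loxl1 223 ± 51.6 FPKM. Elastin and fibulin 5 were highest in library 1 and lowest in library 3, while EFEMP2 was nearly level. The TGF-beta-binding protein Ltbp3 had 210.3 ± 41.2 FPKM and fibrillin 1 (Fbn1), the scaffold of the microfibril, 82.9 ± 5.3 FPKM. Mfap2 was listed at 0, and Fbn2 and Efemp1 had 0.488 and 0.0764 FPKM (chosen after their values were seen).

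Among 34 proteoglycan entries 17 were detected. Bgn alone made up most of the list's sum; next came Sdc2 at 538 ± 18.9 FPKM, Fmod at 637, 364 and 562 FPKM, the basement membrane proteoglycan Hspg2 (perlecan) at 239.7 ± 66.1 FPKM and aggrecan (Acan) at 177, 186 and 227 FPKM. Versican (Vcan) had 29.6 ± 5.11 FPKM. Acan, best known from cartilage, was above Vcan in each library. Laminins and nidogens were detected in 8 of 13 cases, led by Lamc1 at 269, 274 and 288 FPKM, with Lama5 at 85.3 ± 18.3 FPKM, Nid1 at 83.5 ± 12.5 FPKM and Lamb1 at 73.8 ± 11.4 FPKM. Lama4 and Lamb2, further laminin chains of vessels, had 19.7 ± 4.51 and 30.8 ± 8.17 FPKM.

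Matricellular proteins were abundant. Of 31 matrix glycoprotein genes 24 were detected. Ctgf and Cyr61, targets of YAP and of serum response factor, were both high. Ctgf had 2834, 2336 and 2843 FPKM and Cyr61 had 353, 362 and 472 FPKM, and the related CCN genes Nov, Wisp1 and Wisp2 had 727 ± 96.4, 312 ± 37.2 and 219 ± 35.2 FPKM. Among genes named as IGF-binding proteins, 4 of 7 were detected. Igfbp7 had 1884, 1496 and 1314 FPKM, Igfbp2 144, 76.9 and 66.9 FPKM, Igfbp6 80.6, 40.4 and 44.4 FPKM and Igfbp4 54.7, 28.3 and 26.9 FPKM. All 4 were highest in library 1, and the median CV of these 4 was 41.4%. Igfbp5 had 0.743 FPKM and Igfbp3 0.0471 FPKM (chosen after their values were seen).

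In the list of proteinases and their inhibitors 37 of 63 entries were detected, and the highest members, Cst3 and Timp2, were inhibitors. The cysteine proteinase inhibitor Cst3 had 1476, 1807 and 1786 FPKM, the metalloproteinase inhibitor Timp2 2035, 1397 and 1358 FPKM, its relative Timp3 504 ± 77.6 FPKM, and the collagen chaperone Serpinh1 1162 ± 168 FPKM. The membrane-type metalloproteinase Mmp14 had 253, 189 and 178 FPKM, and its target Mmp2 4.27, 3.34 and 2.54 FPKM. Cathepsins B, D and L (Ctsb, Ctsd and Ctsl1) had 425 ± 29.1, 363 ± 41.7 and 259.7 ± 60.3 FPKM. Tissue factor (F3), which starts coagulation, had 21.5, 75.6 and 98.5 FPKM and was lowest in library 1.

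The cells had RNA for many growth factors of their own: 36 of 56 were detected (64.3%, against 42.2% of all entries). Gas6, the ligand of Axl, had 381, 312 and 283 FPKM. Of the 3 TGF-beta genes, Tgfb2 had 231, 251 and 279 FPKM, Tgfb3 had 205, 172 and 295 FPKM and Tgfb1 had 213, 187 and 169 FPKM, and neighbours in that order overlapped. Bmp4 had 166 ± 23 FPKM, Vegfb 77.9 ± 5.71 FPKM, Vegfa 36.5 ± 3.37 FPKM and Inhba 42.6 ± 5.87 FPKM. Of the PDGF genes, Pdgfa had 79.6, 72.6 and 73.1 FPKM, Pdgfc 35.4 ± 7.23 FPKM and Pdgfb 1.37, 5.0 and 7.12 FPKM. Igf1 had 0.0716, 1.18 and 2.36 FPKM, near the detection level and lowest in library 1, and Igf2 had 0.028 FPKM (chosen after its value was seen).

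Cytokine and chemokine genes were detected in 17 of 33 cases. Mif had 971, 772 and 707 FPKM and Cxcl12, the ligand of Cxcr7, 261, 241 and 199.9 FPKM. The adhesion molecule Icam1 had 109.9 ± 14.5 FPKM and Vcam1 3.85 ± 1.27 FPKM. The inflammatory chemokines Ccl2 and Cxcl1 were lowest in library 1. Ccl2 had 6.12, 24.9 and 19.4 FPKM and Cxcl1 had 1.03, 10.2 and 7.1 FPKM. Of 41 Notch ligands, Wnt ligands and Wnt modulators 9 were detected. Nkd2 had 105 ± 25.9 FPKM and Jag1, a Notch ligand of smooth muscle, 104, 89.7 and 82.4 FPKM, and Wnt5a and Wnt9a, the only Wnt ligands detected, had 1.14 ± 0.0554 and 1.07 ± 0.117 FPKM.

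Serum starvation is used to halt the cell cycle, and genes of the cycle were still detected. The detected share was 92.9% for G1, S phase and replication and 87.5% for G2 and M phase, against 42.2% of all entries. Of 28 genes of G1, S phase and replication 26 were detected, led by the D cyclins Ccnd3 (162 ± 33.2 FPKM), CCND2 (94.9 ± 5.27 FPKM) and Ccnd1 (85.4 ± 3.6 FPKM) and by Pcna (87.3 ± 23.9 FPKM). Of 24 genes of G2 and M phase 21 were detected, 9 of them at a mean of at least 10 FPKM. Ube2c had 30.1, 51.4 and 49.6 FPKM, Cdk1 31.2, 31.2 and 28.5 FPKM, Ccna2 24.1, 28.1 and 25.9 FPKM and the proliferation marker Mki67 12.3, 18.8 and 15.7 FPKM. RNA of genes that act in dividing cells was present in each library. Inhibitors were detected in 18 of 19 cases, with Btg1 at 374 ± 49.5 FPKM, Cdkn1a (p21) at 89.5 ± 9.02 FPKM and Cdkn1b (p27) at 88.4 ± 16.4 FPKM.

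Sterol and lipid synthesis genes differed between the 3 libraries. Cells make cholesterol from acetyl-CoA by way of mevalonate, and most of the enzymes are driven by SREBP factors when sterols are scarce. All 22 listed genes were detected, 15 of them at a mean of at least 10 FPKM. These 15 had a median CV of 39.7%, the highest of 43 lists with at least 5 such members, against 14.4% for all genes at that level. Library 2 held the highest value in 13 of the 15, against 26.9% of all genes at that level. Library 1 held the lowest in 12 of the 15, against 42.3% of all genes at that level. At least a 2-fold difference between libraries was found in 11 of 15, against the background of 6.46%.

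The differences ran along much of the pathway. Hmgcs1, which makes the precursor of mevalonate, had 13.9, 30.5 and 19.3 FPKM, and Fdps, the farnesyl diphosphate synthase, 39.6, 85.4 and 53 FPKM. Fdft1, the first enzyme committed to sterols, had 17.2, 33.6 and 20.8 FPKM, and Sqle, which follows it, had 15.4, 39.5 and 26.6 FPKM. Library 2 was highest in each of these 4 genes. Of the later enzymes Msmo1 had 41.5, 101 and 81.2 FPKM and Nsdhl had 12.3, 28.3 and 23.1 FPKM. Sc5d had 9.64, 24.7 and 23.2 FPKM, so these 3 were highest in library 2 as well. Insig1, which holds back SREBP when sterols are plentiful, had 38.7, 83.5 and 51.1 FPKM and the fatty acid desaturase Scd 151, 334 and 152 FPKM, again with library 2 highest. Fasn, the fatty acid synthase, and Mvk, the mevalonate kinase, were the 2 exceptions and were highest in library 1. Fasn had 43.3, 40.9 and 31.8 FPKM and Mvk had 17.2, 15.9 and 7.55 FPKM. The median CV of the list was 32.7% without library 1, 23.0% without library 2 and 52.3% without library 3, and the count of members with a 2-fold difference was 4 of 17, 2 of 13 and 11 of 16. The share of all genes at that level with such a difference was 0.732%, 5.24% and 3.04% in the same settings.

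**Figure D5:**
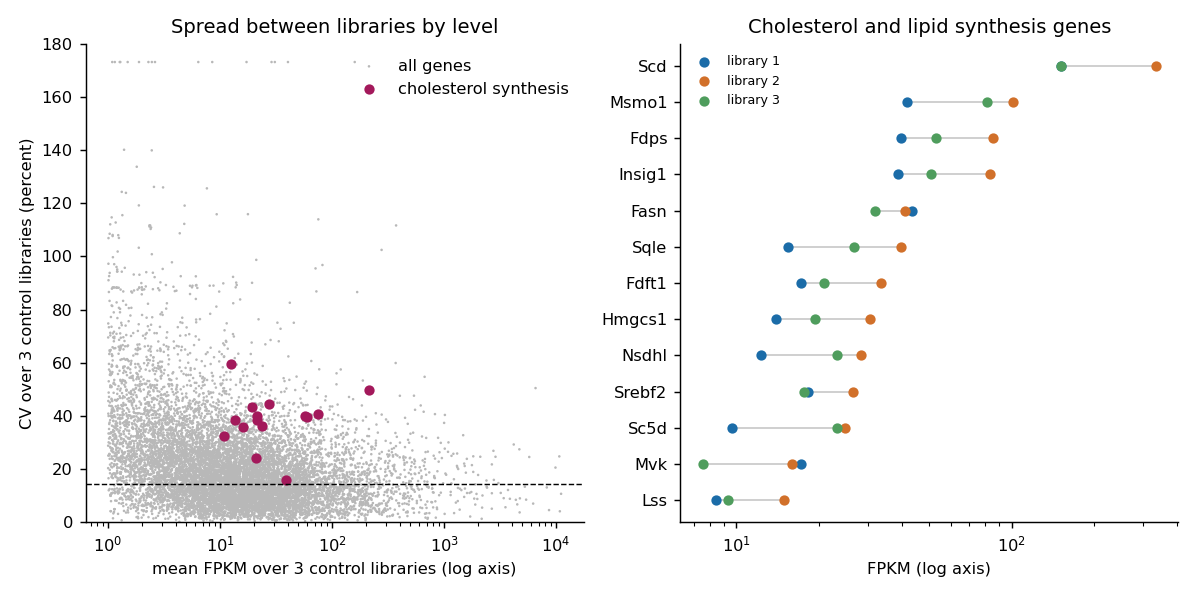
Left, the CV over 3 control libraries (percent, vertical axis) against mean FPKM (horizontal axis, log scale) for all genes at a mean of at least 1 FPKM, with sterol and lipid synthesis genes in red and a dashed line at 14.4%, the median CV of genes at a mean of at least 10 FPKM. Right, FPKM of 13 of the 15 sterol and lipid synthesis genes at that level in each library (horizontal axis, log scale). Library 2 is highest in each gene drawn there but Fasn and Mvk.

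The DNA upstream of the starts of the listed genes was read from RefSeq (GRCr8), which held a promoter window for 14 of the 22 genes. The 14 are not the set described above. Sqle, Fdft1 and Fasn had no window, and the 14 include Dhcr7, Hsd17b7, Mvd and Idi1, 4 genes with a mean below 10 FPKM. Mvk, an exception above, is in both sets. The CCAAT sequence, a general promoter element bound by NF-Y that many sterol genes carry, was searched on both strands in the 250 bases before the start. It occurred in 12 of the 14, against 34.0% of 33469 windows of the same length and 36.9% of the 7733 detected genes with a window. Of 4 overlapping spellings of the sterol regulatory element, also searched on both strands, the shortest, TCACNCCA, was found in 2 of the 14, against 3.24% of all windows. The next, TCACNCCAC, and the longer ones were found in 0 of the 14. The CArG box, which serum response factor binds, was also searched in the contractile list. It was found in 0 of 24 windows held for the 32 genes, against 1.38% of detected genes with a window. Tagln, Myl9 and Myh11 were among the genes without a window, so they were not searched. At so low a share this count says little. These motifs were chosen after the levels were seen, and a match is a description of letters only. The 4 windows below belong to the matching genes with the highest mean FPKM, with CCAAT, or ATTGG where it lies on the other strand, in capitals.
Msmo1 (GRCr8 chr16:29746863-29747112, plus strand): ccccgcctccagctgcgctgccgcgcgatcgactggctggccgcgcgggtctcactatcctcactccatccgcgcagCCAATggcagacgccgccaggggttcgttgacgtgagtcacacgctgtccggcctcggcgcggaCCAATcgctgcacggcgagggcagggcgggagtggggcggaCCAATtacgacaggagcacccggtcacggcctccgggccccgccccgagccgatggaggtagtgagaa
Fdps (GRCr8 chr2:176804817-176805066, minus strand): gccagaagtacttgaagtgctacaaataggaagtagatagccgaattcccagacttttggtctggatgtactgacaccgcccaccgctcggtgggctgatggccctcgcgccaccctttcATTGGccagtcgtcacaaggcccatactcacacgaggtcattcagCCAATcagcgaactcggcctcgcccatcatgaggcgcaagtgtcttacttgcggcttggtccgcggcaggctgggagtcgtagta
Insig1 (GRCr8 chr4:8057770-8058019, minus strand): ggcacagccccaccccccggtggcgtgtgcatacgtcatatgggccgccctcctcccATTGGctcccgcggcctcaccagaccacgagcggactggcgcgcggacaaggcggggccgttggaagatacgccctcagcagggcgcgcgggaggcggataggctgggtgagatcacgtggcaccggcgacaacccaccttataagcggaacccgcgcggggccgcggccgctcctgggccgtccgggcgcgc
Hmgcs1 (GRCr8 chr2:53382054-53382303, plus strand): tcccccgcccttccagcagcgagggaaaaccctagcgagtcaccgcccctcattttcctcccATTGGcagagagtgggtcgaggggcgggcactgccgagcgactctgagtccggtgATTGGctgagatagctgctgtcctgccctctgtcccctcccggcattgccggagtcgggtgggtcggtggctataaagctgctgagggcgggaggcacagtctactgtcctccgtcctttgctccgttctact

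The number of matches in these windows was 3 for Msmo1, 2 for Fdps, 1 for Insig1 and 2 for Hmgcs1. Nsdhl and Mvk held the most matches, 5 each, although library 2 was highest for Nsdhl and library 1 for Mvk. Scd, the gene with the highest level in the list, held none in its window, and neither did Dhcr7.

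Spread between libraries fell with level up to about 10 FPKM and then stayed level. The median CV was 25.9% for genes from 1 to 5 FPKM, 17.7% from 5 to 10 FPKM, 14.7% from 10 to 50 FPKM, 14% from 50 to 100 FPKM, 13.4% from 100 to 500 FPKM and 14% above 500 FPKM. Among 1709 genes with a symbol and a mean of at least 50 FPKM, the 12 with the highest CV held F3, Acta1, Upk3b and Scd, described above. They also held Arl15 at 127, 60.9 and 42.7 FPKM, the protein kinase A subunit Prkacb at 94, 43.5 and 37.9 FPKM, the respiratory chain subunit Cox7c at 49.3, 117 and 162 FPKM, the membrane protein Emp2 at 31.7, 88 and 103 FPKM and RGD1359290 at 622, 279 and 208 FPKM. Library 1 was the highest or the lowest in each of these 5. Also among the 12 were 5S_rRNA and a second ribosomal entry, RPS29, both listed at 0 in library 1.

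The most even genes had CVs near 1%. Idh3a, a subunit of the mitochondrial isocitrate dehydrogenase, had 57.6, 57.2 and 57.4 FPKM (CV 0.359%) and Susd5 200.4, 198 and 199 FPKM (CV 0.739%). Hnrnpdl, Slc35b1, Sumo2l, Eif3d, Blcap and Ndufb2 followed, with CVs from 0.748% to 1.22%. No value was given for 3 genes in 1 or more libraries. Dst had 96.6 FPKM in library 1 and 84.1 in library 3, and Dync1h1 and Plec, at 32.6 and 26.1 FPKM, had a value only in library 3. They were left out of all counts.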

How the data were processed

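Libraries for RNA sequencing were prepared from 1 μg of RNA with a Lexogen SENSE kit, per the labels' protocols. The authors deposited 1 FPKM value per gene and library; the submitters' processing notes name GSNAP and Cufflinks, with versions, build and annotation not given in the sources used here. In all, 3 control columns were matched to their samples by the column name in each record, and the 6 columns of treated samples were not used.

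The table held 26407 rows, 5795 without a symbol. The value 999999999 was read as missing (5 cells of 3 genes, left out), and 2 duplicated all-zero rows were removed. Means, SDs, CVs and shares of summed FPKM were computed in Python 3.11.15 with pandas 2.3.3; no group was compared with another, so no test was run. Scripts were tested on simulated data. Figures were drawn with matplotlib 3.10.9. Symbols were matched to RefSeq (GRCr8) for 19223 of 20607 entries. The depth steps used genes with a mean under 0.15 FPKM.

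The members and the 56 lists were chosen with earlier results of these data known. Named were the 25 genes with the highest mean, the 6 highest of each list, all identity markers, detected members of the other lists, the 12 most and 8 least variable genes at a mean of at least 50 FPKM, and genes with a missing value. Some members of these groups are not reported here. Alternatives were leaving out each library, other scalings, other minimums, medians, other handling of missing values and rows with a symbol only.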

Additional observations from a re-analysis of the deposited data

How the results depend on the processing

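With no test run, an alternative was compared with the spread between the 3 libraries (1 SD), and a count with 1.5 times its value. A single library has no CV. For the median CVs the SD was therefore that of the 3 values with each library left out, which are themselves among the alternatives. Leaving out each library in turn gave 12.8% to 13.1% for the 10 most abundant genes, 38.6% to 39.0% for the 100 most abundant, 1.49% to 1.68% for the contractile list, 9.18% to 9.44% for the matrix lists and 14.8% to 15.9% for ribosomal proteins. The median CV ran from 6.97% to 15.7%, the lowest without library 1. The number of genes at a mean of at least 10 FPKM with a 2-fold difference ran from 46 without library 1 to 330 without library 2, with 192 without library 3; this alternative was chosen after seeing the data. Pericyte markers detected ran from 7 to 8, fibroblast markers from 10 to 11 and potassium channels from 13 to 14. Medians over the libraries gave 13.3% for the 10 and 39.3% for the 100 most abundant genes. With only rows that have a symbol, the 100 most abundant held 39.1%, the matrix lists 10.1% and ribosomal proteins 16.6%. A minimum of 5 FPKM left 7 potassium channels. Other scalings, minimums and handling of missing values moved none of the 12 planned results by more than these margins. No paired analysis was possible because 1 group was described. Depth is unknown, so a gene listed at 0 has no upper limit here, and an X-linked gene at 0 is not read as absent.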

Other observations

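Other gene groups of the control cells are given here as values. Of 19 stress genes of the amino acid response 18 were detected, against 42.2% of all entries, and 4 had a mean of at least 100 FPKM, with Atf4, its main transcription factor, at 898, 882 and 818 FPKM and Atf5 at 965, 563 and 443 FPKM. The amino acid transporter subunit Slc3a2 had 204 ± 35.4 FPKM, the asparagine synthetase Asns 92.6 ± 8.17 FPKM and the pseudokinase Trib3 121, 84.2 and 54.1 FPKM. Atf5 and Trib3 were highest in library 1 and lowest in library 3. Heat shock genes were detected in 14 of 16 entries, led by Hsp90ab1 (709 ± 55 FPKM), the small heat shock genes Hspb1 (515 ± 116 FPKM) and Cryab (378 ± 121 FPKM) and the chaperonin Hspe1 (138 ± 45.5 FPKM). Of 15 hypoxia genes 14 were detected, with the carbonic anhydrase Car9 at 273, 279 and 294 FPKM, and P4ha1 at 85 ± 17.9 FPKM. The summed share of this list was 0.103% ± 0.000259 and thus nearly the same in the 3 libraries.

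Of 28 immediate-early genes 27 were detected in cells without serum (96.4%, against 42.2% of all entries). Besides Ctgf and Cyr61 these were led by the phosphatase Dusp1 (140.4 ± 38.3 FPKM), Ier3 (105 ± 9.11 FPKM), Myc (84.2 ± 18.6 FPKM) and Zfp36 (81.6 ± 11.5 FPKM). Of 20 interferon-stimulated genes 12 were detected, with B2m, the light chain of MHC class I, at 476, 693 and 763 FPKM. Of 33 nuclear receptor entries 26 were detected. After Nr2f2 these were led by the glucocorticoid receptor, split in the table into NR3C1 at 89.2 ± 2.2 and Nr3c1 at 35.2 ± 5.02 FPKM, and by Rarg at 59.2 ± 20.8 and Nr1h2 at 52.3 ± 16.8 FPKM. The estrogen receptor Esr1 had 6.51, 3.23 and 2.76 FPKM and the progesterone receptor Pgr 11.1, 11.5 and 12.5 FPKM.

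Hox genes, which keep a record of body position, were detected in 9 of 47 entries, 5 of them in the Hoxd cluster: Hoxd8 at 11.8, 17 and 16.9 FPKM, Hoxd13 at 11.5, 15.7 and 12.8 FPKM, Hoxd9 at 6.61 ± 1.24 FPKM, Hoxd10 at 3.05 ± 0.635 FPKM and Hoxd3 at 1.88 ± 1.4 FPKM. Hoxb2 (6.11 ± 2.98 FPKM), HOXB3 (2.85 ± 0.783 FPKM), Hoxb6 (2.55 ± 1.25 FPKM) and Hoxb4 (1.79 ± 0.413 FPKM) were the others. No Hoxa or Hoxc entry reached 1 FPKM, Hoxa9 being the highest of them at 0.895 FPKM (chosen after its value was seen).

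Housekeeping lists were widely detected. Of 88 nuclear-encoded respiratory chain entries 79 were detected, with Cox8a at 3305, 2543 and 2165 FPKM and Cox6a1 at 1314 ± 271 FPKM, and they held 2.68% ± 0.0572 of the summed FPKM. Of 22 glycolysis entries 18 were detected, led by Aldoa at 1750.2 ± 198 FPKM, Pgam1 at 486 ± 38.1 FPKM and Ldha at 342 ± 90 FPKM. Of 19 translation factor entries 18 were detected, with Eef2 at 1481 ± 484 FPKM after Eef1a1. Cytoskeletal genes were detected in 24 of 29 entries, with Cfl1 at 2187 ± 119 FPKM and Tmsb10 at 1822 ± 451 FPKM after Actb and Vim. Of 28 genes of protein folding and collagen processing 27 were detected, led by the procollagen proteinase enhancer Pcolce at 1888, 1255 and 1392 FPKM and by P4hb at 571 ± 40.8 FPKM.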
